A study of Mus musculus with 123 samples.

Results

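The genes described here were 10 subunits of the integrins: Itga1, Itga3, Itga4, Itga5, Itga6, Itga7, Itga9, Itgav, Itgb1 and Itgb5. They were taken by gene symbol from the 24134 genes of the expression tables, and all 10 were found. The table also holds 17 other integrin subunits. RNA was measured in neurons of the mouse dorsal root ganglion (DRG) after sciatic nerve transection (SNT), with the ganglia of the uncut, contralateral side of operated mice as the control. All mice were 2 months old. At day 3 they were F1 offspring of CAST/Eij males and C57BL/6 females, all female by the study's methods, the ganglia were L5 and reads were 50 bp long. At day 7 they were C57BL/6 mice of both sexes, the ganglia were L3 to L5 and reads were 75 bp long. Day, cross, sex, ganglia and read length changed together and cannot be told apart. The protocol of the C57BL/6 cells names both 3 and 7 days, and these cells are placed at day 7 by their titles alone.

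Neurons were picked by hand from dissociated ganglia, so that no transgene, Cre line or sort was involved. The authors kept 41 SNT and 18 control neurons at day 3, and 33 SNT and 14 control neurons at day 7. Another 7 SNT and 4 control cells of day 3 were left out by the authors as outliers. Pools of picked neurons at day 3 gave 3 libraries on each side, which were parts of 1 lysate per side. Their spread is therefore technical. The labels name no animal, so the cells of 1 side and day were treated as 1 sample, and no test was run over cells.

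Library totals were 563462 to 839135 counts in the pooled control libraries, 1148849 to 2003817 in the pooled SNT libraries and 261351 to 1849130 in kept cells. Levels are given as counts scaled to the library total (CPM). The names of the pooled libraries and the identifiers in the table pair the sides in opposite ways, and the names were used here. Under these names Atf3, a transcription factor induced by axotomy, was at 1549 ± 126 CPM (mean ± SD, n = 3) in SNT libraries and at 12.7 ± 6.71 CPM in control libraries. Sprr1a and Gap43, other genes of the response to axotomy, were 260-fold and 14.9-fold higher in the libraries named SNT. All 5 genes of the injury list were past 2-fold higher in single SNT neurons of day 3 as well, and those cells are labelled by side on their own. The source label of all 6 pools describes intact neurons, so it does not separate the sides. If the identifiers were right and not the names, every sign in the pooled comparison would turn. Summed markers of neurons were at 6910 to 18234 CPM in kept cells, so each kept cell carried neuronal RNA. Summed markers of glia, the satellite and Schwann cells that wrap DRG neurons, ranged from 18.6 to 13594 CPM in kept cells. In the pools they were at 11099 to 13585 CPM in control and 5167 to 6079 CPM in SNT libraries. In these pools fewer cells of a type and less RNA per cell cannot be told apart.

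Integrins are receptors that tie the cell to the extracellular matrix. Each is a pair of an alpha and a beta chain, and the alpha chain largely decides which matrix protein is bound. Chains encoded by Itga3, Itga6 and Itga7 pair with the Itgb1 chain to bind laminins, the main proteins of the basal lamina along which peripheral axons regrow. The Itga1 chain binds collagens, the Itga5 chain binds fibronectin, the Itga4 and Itga9 chains bind several matrix and cell surface ligands, and the Itgav chain pairs with Itgb1, Itgb5 and other beta chains to bind ligands that carry an RGD motif, such as vitronectin. In the growth cone of a sensory neuron the receptors link the matrix to actin through talin, vinculin and related adaptors.

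In GENCODE M21 (build GRCm38) the laminin receptor gene Itga7 (ENSMUSG00000025348) lies at chr10:128933818-128958282 on the plus strand, and its merged exons cover 8092 bases. Itgb1 (ENSMUSG00000025809) lies at chr8:128685654-128733200 on the plus strand and Itgb5 (ENSMUSG00000022817) at chr16:33829665-33949338 on the plus strand. Itga5 (ENSMUSG00000000555) lies at chr15:103344286-103366763 on the minus strand. Exons of Itga4 share 1124 bases with Cerkl on the opposite strand. Exons of Itgav share 634 bases with Gm13684 on the opposite strand. Exons of Itga1 share 685 bases with Gm49395 on the same strand. Exons of Itga7 share 9 bases with Mettl7b on the opposite strand. Where exons are shared, reads of the genes could not be separated, and values of these 4 members are uncertain to that extent.

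RefSeq promoter windows (GRCm38.p6) were matched for 8 of the 10 members, not for Itga6 and Itga7. The 250 bases before the start are printed, 5′ to 3′ on the gene's strand, for the beta chain genes that rose in the pools and for the fibronectin receptor gene Itga5. They are at chr8:128685404-128685653 for Itgb1, chr16:33829415-33829664 for Itgb5 and chr15:103366792-103367041 for Itga5. Capitals mark GGGCGG, the core of the GC box, on either strand.
Itgb1: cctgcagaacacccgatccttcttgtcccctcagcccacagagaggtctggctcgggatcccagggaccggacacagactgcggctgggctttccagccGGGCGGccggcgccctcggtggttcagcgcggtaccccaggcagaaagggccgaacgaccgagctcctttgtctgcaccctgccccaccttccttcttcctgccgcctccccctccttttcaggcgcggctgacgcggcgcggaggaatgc
Itgb5: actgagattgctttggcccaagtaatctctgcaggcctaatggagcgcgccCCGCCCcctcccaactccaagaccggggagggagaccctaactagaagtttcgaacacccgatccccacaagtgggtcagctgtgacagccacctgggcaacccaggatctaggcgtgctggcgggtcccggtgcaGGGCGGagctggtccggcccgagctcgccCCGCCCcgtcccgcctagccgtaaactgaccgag
Itga5: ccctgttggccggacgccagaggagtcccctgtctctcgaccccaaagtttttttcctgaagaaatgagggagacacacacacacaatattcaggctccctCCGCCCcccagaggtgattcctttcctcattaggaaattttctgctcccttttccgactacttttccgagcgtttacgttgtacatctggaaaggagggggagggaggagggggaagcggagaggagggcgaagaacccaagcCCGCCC
GGGCGG occurred once in the Itgb1 window, with its first base at position -151 from the start. It occurred at -199, -63 and -34 in the Itgb5 window and at -149 and -6 in the Itga5 window. Among 32817 RefSeq windows of this length, 32.7% held it. TGANTCA, the letters bound by AP-1 factors, and TGACGTCA, the cyclic AMP response element, were searched on both strands as well and were in none of the 9 windows of the members, of which Itga3 has 2. They were in 6.75% and 1.55% of all windows, so their absence from 9 windows carries little information. The Itga9 window, at chr9:118711442-118711691, lies inside the gene, which starts at 118606690, so the bases before that start were not searched. Of the 2 Itga3 windows, the one at chr11:95069199-95069448 also lies inside the gene. The 3 motifs did not overlap in these windows.

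The pooled libraries ask which subunits differ between axotomized and intact ganglia at day 3. Itga7, Itgb1 and Itgb5 rose on the SNT side, and no member fell. Itga7 is the laminin-binding alpha chain, Itgb1 is its partner, and Itgb5 is a partner of the Itgav chain. A gene was called where edgeR's quasi-likelihood test gave an adjusted p under 0.05 and the log2 change was larger than 1 in size. By this rule 3 of the 9 members tested were called, all higher, beside 15.9% of the 13509 genes tested in either direction and 8.83% that were higher on the SNT side. The median log2 change was 0.70 over the 9 members (0.69 with Itga5 at its lower bound) and 0.02 over all genes.

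**Figure D1:**
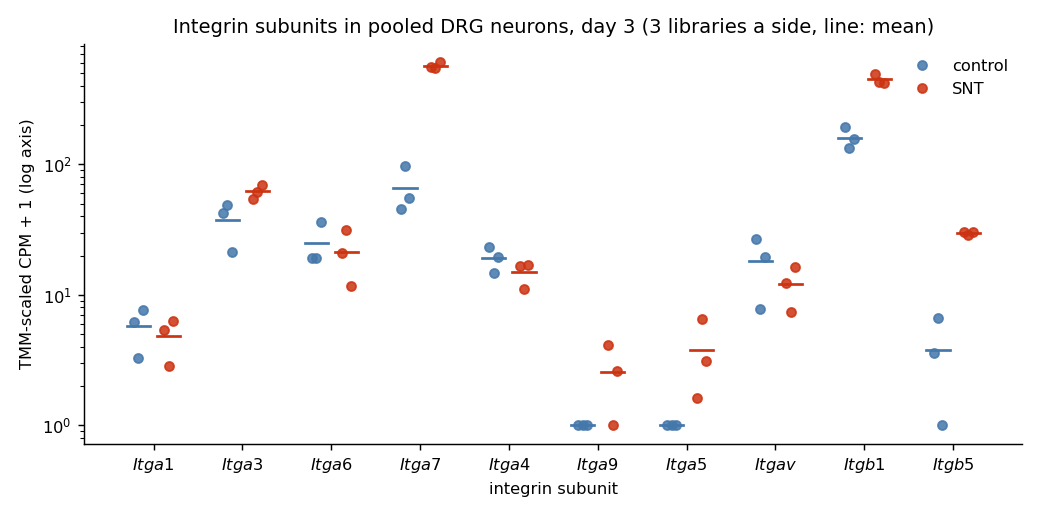
CPM + 1 (log axis, TMM-scaled) of the 10 integrin subunits in the pooled day 3 libraries, with 3 control libraries (blue) and 3 SNT libraries (red) per gene as points and the mean as a line. Itga7, Itgb1 and Itgb5 are separated by wide gaps, whereas Itga1, Itga4, Itga6 and Itgav overlap.

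Itga7 was at 44.1, 96.2 and 53.8 CPM in the 3 control libraries and at 550, 548 and 604 CPM in the 3 SNT libraries. The sides did not overlap, and every SNT library was far above the highest control library. The mean rose from 64.7 ± 27.7 to 568 ± 31.8 CPM (SD, n = 3), a log2 change of 3.1 (SE 0.19, edgeR adjusted p = 1.1e-16).

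Its partner Itgb1 was at 191, 132 and 155 CPM in control libraries and at 493, 428 and 416 CPM in SNT libraries. All SNT libraries were again above all control libraries. The mean rose 2.80-fold, a log2 change of 1.49 (SE 0.16, edgeR adjusted p = 4.9e-10).

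Itgb5 was at 2.59, 5.66 and 0 CPM in control libraries, from 7 counts in all, and at 29.3, 27.6 and 29.3 CPM in SNT libraries. The SNT libraries agreed closely with each other, whereas the control values rested on few counts. The log2 change was 3.2 (SE 0.53, edgeR adjusted p = 9.4e-06), and it was 4.21 without control library 2.

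Of the other laminin receptors, Itga3 was at 41.5, 47.5 and 20.2 CPM in control and 53.1, 60.8 and 68.7 CPM in SNT libraries. The sides did not overlap, as held for 37.7% of all genes tested, but the log2 change of 0.70 (SE 0.27, adjusted p = 0.052) did not pass the test. Itga6 was at 18.2, 18.1 and 35.3 CPM in control and 19.98, 30.4 and 10.6 CPM in SNT libraries, with a log2 difference of -0.24 (SE 0.40, adjusted p = 0.72). The collagen receptor gene Itga1 stayed at or below 6.72 CPM in all 6 libraries, with a log2 difference of -0.18 (SE 0.81, adjusted p = 0.91).

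Among the receptors for other ligands, Itgav was at 25.9, 6.79 and 18.5 CPM in control and 11.2, 6.45 and 15.4 CPM in SNT libraries. Its log2 difference of -0.55 (SE 0.48, adjusted p = 0.44) and that of Itga4, at -0.34 (SE 0.41, adjusted p = 0.61), were within the spread of the libraries. Itga5 had 0 counts in the control libraries and 11 counts in the SNT libraries, in each of which it was above 0. Against the floor of 3 counts over the control side, 1.41 CPM, Itga5 was at least 1.62-fold higher on the SNT side (adjusted p = 0.097). Itga9 had 0 and 8 counts, at least 1.18-fold higher, and was below the filter of the test. None of these 4 members was called at this depth.

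Single neurons show how these levels are spread among cells of a side. In day 3 cells the same 3 members, Itga7, Itgb1 and Itgb5, were past a 2-fold higher mean on the SNT side, and none was past a 2-fold lower mean. Itgb5 was the least firm of these, since its log2 ratio was 0.91 with a pseudocount of 10 CPM, and its mean on the SNT side was 8.90 CPM after thinning and 6.61 CPM without glia-rich cells, below the level compared. Of the 10 members 7 reached a mean of 10 CPM on either side and were compared. Among 9736 genes at this level 11.9% were past 2-fold, and 5.82% were past it in the higher direction. The median log2 ratio of mean CPM + 1 was 0.59 over the 7 members and -0.05 over all genes. The labels give no replicate of a side, so these are descriptions without a test.

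**Figure D2:**
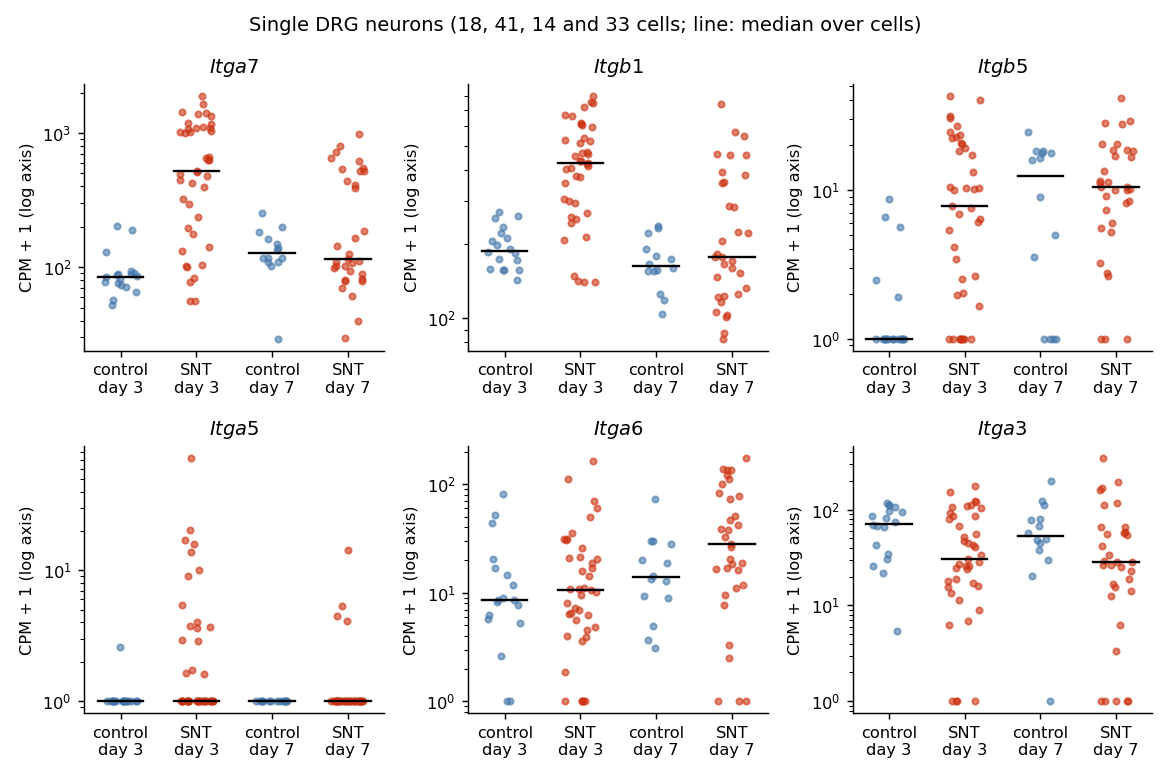
CPM + 1 (log axis) of 6 integrin subunits in single kept neurons, where each point is a cell, blue is control, red is SNT and the line is the median over cells. Itga7 and Itgb1 spread upward on the SNT side at both days, Itgb5 is at 0 in 13 of the 18 control cells of day 3, and Itga5 is at 0 in most cells.

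Itga7 ranged from 51.4 to 202 CPM, with a median of 84.1 CPM, in the 18 control neurons of day 3. In the 41 SNT neurons it ranged from 54.6 to 1897 CPM, with a median of 522 CPM. Of these, 30 were above every control neuron (73.2%, exact 95% binomial interval 57.1 to 85.8%) and the other 11 lay within the control range. The interval covers the counting of cells only. It takes the 41 neurons as independent draws and the highest control neuron as fixed, and it measures no spread among animals. The mean was 7.3-fold higher, a log2 ratio of 2.85.

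Itgb1 ranged from 142 to 269 CPM, with a median of 187 CPM, in control neurons and from 139 to 798 CPM, with a median of 424 CPM, in SNT neurons. Every neuron of both sides carried Itgb1 at over 100 CPM, and 31 of 41 SNT neurons were above every control neuron. The log2 ratio was 1.14.

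Itgb5 was at 0 in 13 of 18 control neurons and reached 7.7 CPM in the highest. In SNT neurons it had a median of 6.75 CPM and a highest value of 41.8 CPM, and 20 of 41 were above every control neuron. The log2 ratio was 2.49.

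Itga5 was above 0 in 1 of 18 control neurons, at 1.60 CPM, and in 17 of 41 SNT neurons, up to 70.7 CPM. Its mean was 0.09 CPM in control and 4.20 CPM in SNT neurons, below the level at which members were compared. Most SNT neurons had no count of it at a median total of 1323932 counts.

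The remaining alpha chains overlapped widely between the sides at day 3. Itga3 had a median of 70.6 CPM in control neurons (range 4.39 to 115) and 29.3 CPM in SNT neurons (range 0 to 175), with a log2 ratio of means of -0.46 and of medians of -1.24. Itga4 had medians of 18.0 and 11.3 CPM and a log2 ratio of -0.78, and 1 control neuron at 143 CPM carried a large part of the control mean. Itga6 had medians of 7.58 and 9.56 CPM and a log2 ratio of 0.33.

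Itgav had medians of 3.85 CPM in control and 9.81 CPM in SNT neurons and a log2 ratio of 0.59. Itga1 and Itga9 stayed below a mean of 1.6 CPM on both sides. Itga3, Itga6 and Itgav had the opposite sign in the pools of day 3, with log2 changes of 0.70, -0.24 and -0.55 that were not called. Itga4 had the same sign in both.

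At day 7 Itga7 and Itga6, both laminin receptor chains, were past a 2-fold higher mean on the SNT side, and no member was past 2-fold lower. Of the 10 members 7 were compared. Among 9622 genes 7.66% were past 2-fold, and 4.45% were past it in the higher direction. The median log2 ratio was 0.36 over the 7 members and -0.07 over all genes.

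Itga7 ranged from 28.4 to 253 CPM, with a median of 126 CPM, in the 14 control neurons and from 28.7 to 984 CPM, with a median of 115 CPM, in the 33 SNT neurons. Its log2 ratio of means was 1.02, but the median neuron did not differ in that direction. The higher mean came from 12 neurons that were above every control neuron (36.4%, exact 95% binomial interval 20.4 to 54.9%, with the same limits as at day 3). The median over cells gave a log2 ratio of -0.13.

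Itga6 ranged from 2.07 to 71.5 CPM, with a median of 12.9 CPM, in control neurons and from 0 to 172 CPM, with a median of 27.1 CPM, in SNT neurons. Of the 33 SNT neurons 10 were above and 4 were below every control neuron. The log2 ratio was 1.34.

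Itgb1 had medians of 162 CPM in control and 176 CPM in SNT neurons, and 12 of 33 SNT neurons were above the highest control neuron at 236 CPM. Its log2 ratio was 0.58. Itgb5, which was near 0 in most control neurons of day 3, was at a median of 11.4 CPM in control and 9.36 CPM in SNT neurons of day 7, with a log2 ratio of 0.23. The difference between days was not tested.

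Itga9 was above 0 in 2 of 14 control neurons, with a highest value of 2.47 CPM, and in 17 of 33 SNT neurons, with a highest value of 48.7 CPM. It was above every control neuron in 14 SNT neurons, at a mean of 5.55 CPM, too low to be compared by the rule. Itga5 had 0 counts in the 14 control neurons and 16 counts in the SNT neurons, at least 2.86-fold higher against a floor of 3 counts over the control side. Itga3, Itga4 and Itgav had log2 ratios of -0.31, 0.36 and -0.18, and Itga1 stayed at or below a mean of 3.82 CPM.

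**Figure D3:**
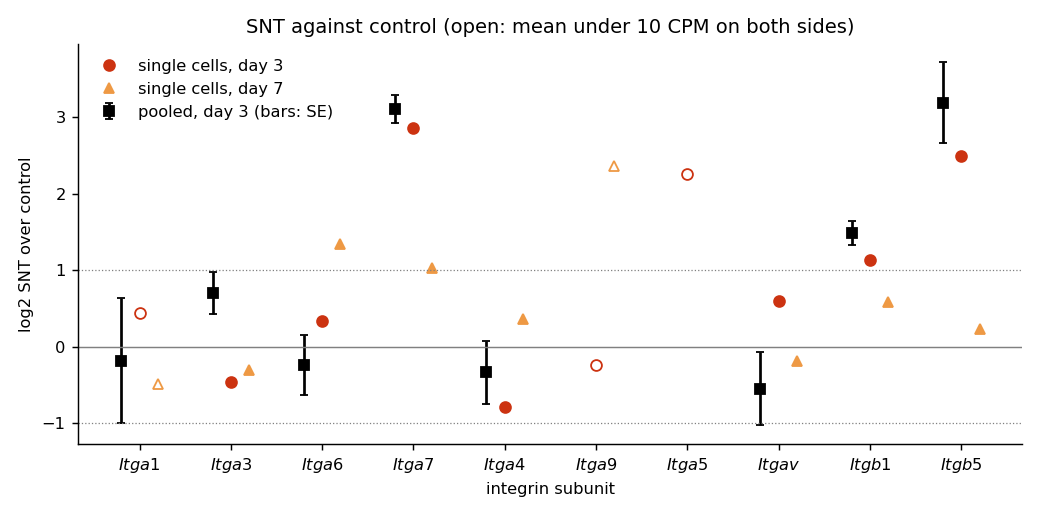
Log2 SNT over control for each subunit, as the edgeR estimate with its SE in pools (squares) and as the ratio of mean CPM + 1 in single cells of day 3 (circles) and day 7 (triangles). Dotted lines mark 2-fold, open symbols are means below 10 CPM on both sides, and points against a side at 0 counts are not drawn. Itga7 lies above the upper dotted line in all 3 comparisons.

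The cells of day 7 come from labelled female and male mice, the 1 split by animal that the labels allow. Itga6 had a log2 ratio of 1.51 over 16 SNT and 7 control neurons of females and 1.07 over 17 and 7 neurons of males. Itga7 had 1.36 in females and 0.72 in males, and Itgb1 had 0.86 and 0.26. The direction of these 3 ratios of means was the same in both sexes. In males the medians of Itga7 and Itgb1 were lower on the SNT side. They were at 110 and 152 CPM in SNT against 149 and 165 CPM in control neurons. In females these medians were 276 and 253 CPM in SNT against 117 and 155 CPM in control neurons. The median of Itga6 was higher on the SNT side in both sexes. Neurons with Atf3 above every control neuron of day 7 numbered 8 of 16 in females and 4 of 17 in males. Itga3 had log2 ratios of 0.04 in females and -0.87 in males, and Itgav had -0.88 and 0.19.

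On the SNT side Atf3 split the neurons into separate groups, with no neuron between 23.04 and 951 CPM at day 3 or between 13.9 and 704 CPM at day 7. All 30 neurons with high Atf3 at day 3 and all 12 at day 7 had Itga7 above every control neuron, and none of the other 11 and 21 neurons did. Itga7 was at 234 to 1897 CPM in the first group and 54.6 to 196 CPM in the second at day 3, and at 387 to 984 CPM and 28.7 to 185 CPM at day 7. Itgb1 was above every control neuron in 28 of 30 neurons with high Atf3 and 3 of 11 others at day 3, and in all 12 and none of 21 at day 7.

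**Figure D4:**
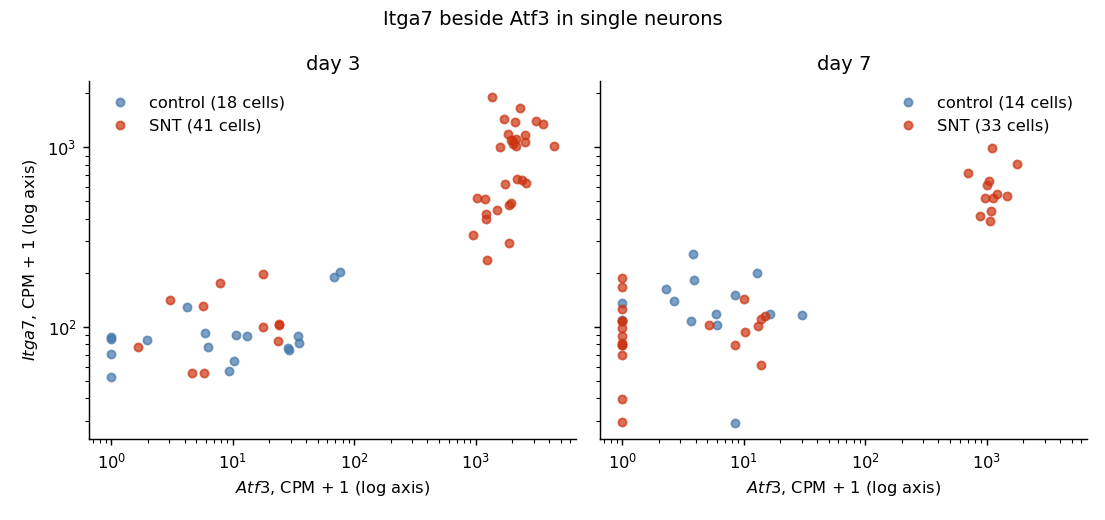
Itga7 against Atf3 in single kept neurons, both as CPM + 1 on log axes, for day 3 (left) and day 7 (right), with control neurons in blue and SNT neurons in red. SNT neurons form an upper right group, 30 at day 3 and 12 at day 7, and a lower left group that shares the range of the control neurons.

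Other members followed Atf3 less closely or not at all. Itgb5 was above every control neuron in 19 of 30 neurons with high Atf3 and 1 of 11 others at day 3. Itga5 was above every control neuron in 14 of 30 and in none of the 11 others. Itga9 at day 7 showed the opposite order, with 3 of 12 neurons with high Atf3 and 11 of the 21 others above every control neuron. This order rests on few counts, 3 over all control and 103 over all SNT neurons, and the highest control neuron had 2. Totals of the SNT neurons ranged from 261351 to 965292 counts, so those of low total could pass it with fewer counts. Itga6 at day 7 was above every control neuron in 5 of 12 and in 5 of 21, so its higher mean was not carried by neurons with high Atf3 alone.

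For each member at 10 CPM or more in at least 50% of the 41 SNT neurons of day 3, the genes with the most similar pattern among 8370 were found by Spearman's rho on log2(CPM + 1). For Itga7 these were Sox11, a transcription factor of axon growth (rho 0.89), and Fam129b (rho 0.89). Over the 33 SNT neurons of day 7, which were not used for the choice, the values were 0.60 and 0.61. Because the SNT neurons fall into separate groups by Atf3, values were also taken within these groups. Within the 30 neurons with high Atf3 at day 3 they were 0.77 for Sox11 and 0.88 for Fam129b. These 30 were among the 41 used for the choice, which favours high values there. Within the 12 with high Atf3 at day 7, which were not used for the choice, they were 0.02 and 0.27. Within the 21 others at day 7 they were -0.38 and -0.26.

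For Itgb1 the most similar genes were Pdcd6ip (rho 0.77), which acts in endosomal sorting, and the cytoplasmic actin gene Actg1 (rho 0.77). At day 7 the values were 0.27 and 0.67. For Itga3 they were Cdkn2aipnl and Zbtb44 (rho 0.72 each, 0.47 and 0.24 at day 7). For Itga4 they were A130077B15Rik (rho 0.68) and Kcnq1ot1 (rho 0.67), with 0.00 and 0.01 over the SNT neurons of day 7. Over control neurons the values for these genes were 0.57 and 0.68 at day 3 and 0.56 and 0.6 at day 7. The likeness seen for Itga4 was thus absent from the SNT neurons of day 7 but not from the control neurons of that day. Neurons of a day share preparation and sequencing, and low levels limit these correlations.

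Itga7 and its partner Itgb1 varied together on the SNT side, with a rho of 0.61 over 41 neurons at day 3 and 0.64 over 33 at day 7. Over the 18 and 14 control neurons the rho of Itga7 and Itgb1 was 0.03 and -0.07. Within the neurons with high Atf3 it was 0.09 at day 3 and -0.26 at day 7, so both genes were high in the same group of neurons but not graded together inside it.

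Itgav varied with glial RNA. Its rho with the summed level of 11 glial markers was 0.88 over 18 control and 0.54 over 41 SNT neurons at day 3, and 0.77 over 14 control and 0.78 over 33 SNT neurons at day 7. Itga3 had the opposite sign in control neurons, with a rho of -0.73 at day 3 and -0.56 at day 7, and values near 0 in SNT neurons (-0.10 and -0.14). Itga6 had 0.75 in control and 0.66 in SNT neurons at day 3, but 0.25 and -0.23 at day 7. For Itga7 the values were -0.01, -0.28, 0.51 and -0.23 in the same order of groups, and for Itgb1 they were -0.30, -0.0038, -0.14 and -0.22.

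**Figure D5:**
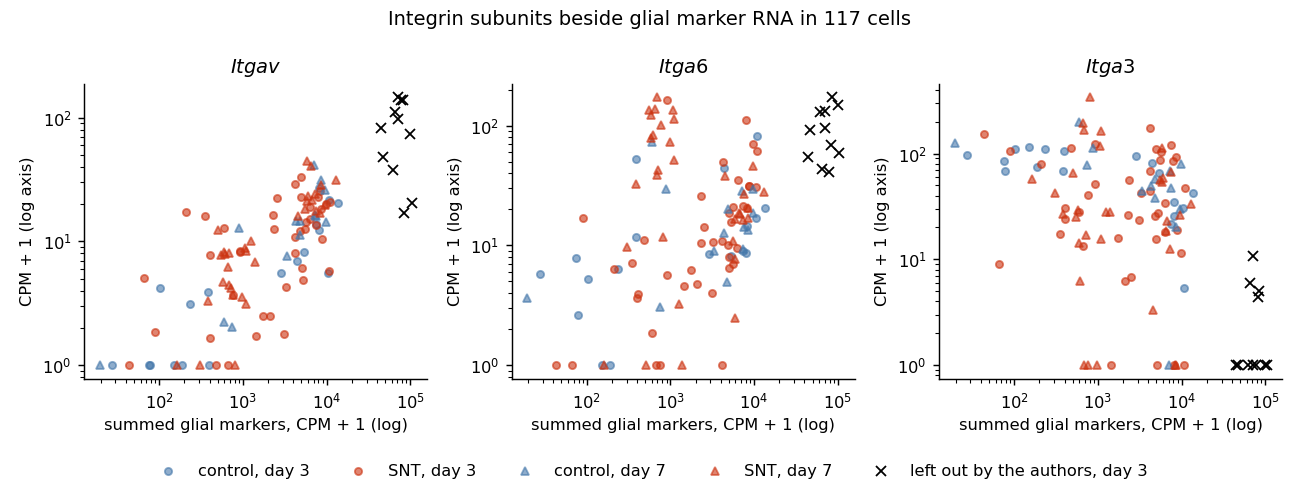
Itgav, Itga6 and Itga3 against the summed CPM of 11 glial markers in all kept and left-out cells (log axes, CPM + 1), with kept control cells in blue, kept SNT cells in red, circles for day 3, triangles for day 7 and crosses for the 11 cells that the authors left out. Itgav climbs from left to right up to the crosses, and Itga3 is at or near 0 in the crosses.

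The part of glial RNA in these differences was not tested. Without the 7 control and 14 SNT neurons of day 3 above 5000 CPM of glial markers, a limit chosen after the data were seen, the log2 ratio of Itga7 was 3.3 and that of Itgb1 was 1.06, as large as or close to the values with them. That of Itgav was 1.87 in place of 0.59, at means of 8.84 CPM in SNT and 1.70 CPM in control neurons, below the level compared. At day 7, without 6 control and 12 SNT neurons, Itga7 had 1.45 and Itga6 had 1.76.

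Itga6 also varied with markers of the kinds of neuron. It had a rho of 0.85 over 18 control neurons of day 3 and 0.86 over 14 of day 7 with Ntrk2, the BDNF receptor gene carried by a class of touch neurons. With P2rx3, a marker of non-peptidergic nociceptors, it had -0.32 and -0.69. Over SNT neurons the rho of Itga6 and Ntrk2 was 0.66 at day 3 and -0.01 at day 7. In the pools all 4 markers of C-LTMRs, 3 of 5 of non-peptidergic and 2 of 4 of peptidergic neurons were called lower on the SNT side, and 2 of 5 of large myelinated neurons were called higher. Of all 13509 genes tested, 961 were called lower and 1193 higher. Ntrk2 itself was lower in the pools, at 142 ± 7.82 CPM in SNT and 242 ± 26.3 CPM in control libraries (log2 difference -0.78, adjusted p = 0.00022), within the 2-fold limit of a call. Whether a change in the kinds of neuron took part in the values of Itga6 was not tested.

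Levels of different subunits were compared per kb of merged exon. Merged exons join those of all transcripts of a gene and can be longer than 1 mRNA. They cover 8092 bases for Itga7 and 4081 for Itgb1, so the order of genes depends on this choice of length. In control neurons of day 3 Itgb1 was highest at 47.9 ± 9.55 CPM per kb (SD over 18 cells), above Itga3 at 11.9 ± 6.08 and Itga7 at 11.5 ± 5.03 CPM per kb. In SNT neurons of day 3 Itgb1 was at 106 ± 44.6 and Itga7 at 84.0 ± 63.4 CPM per kb, and Itga3 followed at 8.60 ± 7.99 CPM per kb. These SDs describe the spread among cells, which includes the separate groups by Atf3, and not the error of a difference between genes. By this measure the mean of Itga7 was close to that of Itga3 among alpha chains on the control side and well above it on the SNT side. In the pools the order of SNT levels was the same, with Itgb1 at 109 ± 10.2, Itga7 at 70.1 ± 3.93, Itga3 at 10.7 ± 1.37 and Itgb5 at 8.09 ± 0.27 CPM per kb (SD, n = 3). There Itgb1 lay above Itga7 per kb by more than these SDs, which are technical. Without scaling by length the order was opposite, with Itga7 at 568 and Itgb1 at 446 CPM. Which of the 2 had more RNA is therefore not settled. At day 7 SNT neurons had Itgb1 at 62.0 ± 40.7 and Itga7 at 34.4 ± 32.7 CPM per kb.

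The other genes of the pathway were read from lists in the same pooled fit. Over all 13509 genes tested in that fit, 1193 were called higher and 961 were called lower on the SNT side. Of 7 tested among 17 other integrin subunits, 1 rose and 2 fell, and the median log2 change was -1.0. After thinning to the smallest total none was higher and 1 was lower, and without SNT library 1 the counts were 1 and 1. Itgb6 rose from 1.86 ± 1.95 to 11.8 ± 3.03 CPM (log2 change 2.67, adjusted p = 0.0073). The platelet and osteoclast chain Itgb3 fell from 28.5 ± 9.10 to 4.70 ± 3.3 CPM (log2 change -2.48, adjusted p = 9.7e-05), and Itgb8 fell from 56.3 ± 11.9 to 26.3 ± 6.89 CPM (log2 change -1.14, adjusted p = 0.0021). In single cells the log2 ratios of Itgb6, Itgb3 and Itgb8 were 0.53, 0.04 and 0.38 at day 3 and -0.79, -0.47 and -0.59 at day 7. At day 3 Itgb8 alone of these 3 reached a mean of 10 CPM on a side, and its direction there was opposite to that in the pools.

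Adaptors link the beta chain to actin. Of 31 tested, 3 rose and 2 fell, a share near the 15.9% of all genes, and the median log2 change was 0.23. Without control library 2 only 1 was lower. In single neurons 1 of 24 compared was past 2-fold higher and 1 lower at day 3, and 1 of 26 higher and none lower at day 7. Over all genes compared in cells, 11.9% at day 3 and 7.66% at day 7 were past 2-fold in either direction. Zyx, the focal adhesion protein zyxin, rose from 30.04 ± 4.01 to 185 ± 25.1 CPM (log2 change 2.62, adjusted p = 1.4e-12). Tln1, which encodes talin 1, a protein that binds the beta chain directly, rose from 84.9 ± 22.2 to 198 ± 9.88 CPM (log2 change 1.20, adjusted p = 2.6e-06). The other talin gene, Tln2, went the other way and fell from 194 ± 5.32 to 92.0 ± 4.39 CPM (log2 change -1.07, adjusted p = 4.1e-06). The scaffold gene Bcar1 rose (log2 change 1.37, adjusted p = 0.0019), and the actin crosslinker Actn1 fell (log2 change -1.74, adjusted p = 0.0085). Zyx was also past 2-fold higher in cells at both days, with log2 ratios of 1.46 and 1.26.

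Of 13 membrane partners, 3 rose and 3 fell, beside 15.9% of all genes called in either direction, and the median log2 change was -0.61. In single neurons of day 3 the median log2 ratio of the same 13 was 0.70, with 3 past 2-fold higher and 1 lower. At day 7 it was -0.42 over 12, with 2 higher and 3 lower. The shares past 2-fold in either direction over all genes compared in cells were 11.9% at day 3 and 7.66% at day 7. Plaur, the urokinase receptor, rose from 10.1 ± 1.64 to 88.4 ± 12.9 CPM (log2 change 3.1, adjusted p = 1.2e-10), and the syndecan Sdc1 rose from 68.5 ± 6.57 to 296 ± 40.3 CPM (log2 change 2.11, adjusted p = 2.1e-12). The tetraspanin Cd82 fell from 329 ± 35.7 to 88.5 ± 21.3 CPM (log2 change -1.87, adjusted p = 1.7e-11), and Cd47 fell from 362 ± 66.1 to 126 ± 5.17 CPM (log2 change -1.52, adjusted p = 4.4e-10). With library size alone in place of TMM factors 6 of the 13 were lower.

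Of 25 tested among 34 ligand genes, 2 rose and 7 fell, and the median log2 change was -0.87. Of all 13509 genes tested, 1193 rose and 961 fell. Without SNT library 1 or after thinning only 2 were lower, and by DESeq2 or limma with trend 4 were. In single neurons only ligands at a mean of 10 CPM or more on a side were compared, fewer than the 25 tested in pools. Among 12 at day 3, 4 were past 2-fold higher and none lower, with a median log2 ratio of 0.65. Among 13 at day 7, 2 were higher and 1 lower, with a median of -0.12. Over all genes compared in cells, 5.82% were past 2-fold higher at day 3 and 4.45% at day 7, and 11.9% and 7.66% in either direction. The medians of pools and cells cover different sets of genes, so they do not show a change of direction for the same genes. The 2 that rose in the pools were Lama5 and Mfge8. The laminin chain Lama5 had 112 SNT counts against 1 control count, a ratio of 49.4 (exact 95% counting interval 8.69 to 1970). Mfge8, a secreted RGD protein, rose from 2.68 ± 1.20 to 29.9 ± 3.63 CPM (log2 change 3.4, edgeR adjusted p = 1.7e-06). The laminin chains Lama4 and Lama2 fell, by log2 changes of -3.07 (adjusted p = 4.7e-06) and -1.49 (adjusted p = 0.01). Both are chains that Schwann cells make, and 7 of the 11 glial markers were also lower and 1 higher in the same libraries. The part of glial RNA in the ligand counts was not tested. Lama5 was higher in single SNT neurons as well, with log2 ratios of 2.59 at day 3 and 2.5 at day 7, whereas Mfge8 had 3.04 at day 3 and -1.52 at day 7.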

How the data were processed

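Single DRG neurons and pools of neurons were amplified by Smart-seq2 and sequenced. The authors aligned reads with Bowtie2 and deposited expected counts from RSEM, in tables that they name TPM. Their processing notes name mm9 and CASAVA 1.8.2. The 2 tables, with and without outliers, hold equal values for 24134 genes. Every column of values was used. Side and day came from sample titles; the protocol of the day 7 cells names both days.

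Pooled counts were rounded and analysed with edgeR 4.0.16 (R 4.3.3) with TMM factors, a mean of at least 1 CPM and a prior count of 0.125. P-values were adjusted by Benjamini-Hochberg over all 13509 genes. The script was tested on simulated data. Alternatives used limma 3.58.1 and DESeq2 1.42.0. The 3 libraries of a side are parts of 1 lysate, so p-values measure technical spread. The interval of the Lama5 ratio and the floors cover counting error of reads. Intervals of shares of cells take the cells as independent draws and measure no spread among animals.

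Cells were compared by log2 ratios of mean CPM + 1, without a test, in Python 3.11.15 (pandas 2.3.3, scipy 1.17.1). Fewer than 10 CPM was treated as too low to compare.

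Named genes were all members, the 4 genes of each list with the largest change among those called, without overlap of libraries and at 10 CPM or more on the higher side, and the 2 genes most like each member at that level in at least 50% of SNT cells of day 3. Tln2 was named in addition, as the other talin gene beside Tln1. Members and lists were chosen with earlier results of these data known. Marker lists were of glial, neuronal, immune, stromal and vascular, non-peptidergic, peptidergic, large myelinated and C-LTMR cells, and an injury list. In pools 2 of 3 immune, 1 of 7 stromal and vascular and 1 of 8 neuronal markers tested were higher and none lower, and all 5 injury genes were higher. Of all genes tested 8.83% were higher.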

Additional observations from a re-analysis of the deposited data

Results flagged for a closer look

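Expression in the day 3 cells that the authors left out was outside the comparisons above. In all 4 left-out control cells Itgav was above every kept control neuron of day 3. It was at 47.3 to 146 CPM there, with a mean of 117.2 CPM, against a highest value of 26.01 CPM in kept control neurons. Itgb5 was also above every kept control neuron in all 4, at 11.2 to 22.3 CPM with a mean of 14.97 CPM, against a highest kept value of 7.7 CPM. In the same 4 cells the 11 glial markers summed to 46584 to 82316 CPM and the 8 neuronal markers to 257 to 1217 CPM. The 7 left-out SNT cells had Itgav at 15.99 to 110 CPM, with 5 of 7 above every kept SNT neuron, and Itgb5 at 0 to 35.03 CPM.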

How the results depend on the processing

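Itga7, Itgb1 and Itgb5 were called in pools in each of 16 alternatives, and no other member was. Leaving out 1 library gave log2 changes of 2.86 to 3.54 for Itga7, 1.36 to 1.63 for Itgb1 and 2.74 to 4.21 for Itgb5, the highest of Itgb5 without control library 2, which held most of its control counts. For members that were not called, it gave -0.54 to 0.13 for Itga1, which turned positive without SNT library 2 (0.11) or control library 3, and -0.60 to 0.11 for Itga6, which turned positive without SNT library 3 (0.10) or control library 3. With library size alone 6 membrane partners were lower in place of 3, and the median of all genes moved to -0.14, with 43.6% of calls higher in place of 55.4%. With limma on log2(CPM + 1) 6 membrane partners and 4 adaptors were lower. Ligands were lower in 2 cases without SNT library 1 or after thinning and in 4 by DESeq2 or limma with trend, in place of 7. Without any filter the median of other subunits turned to 1.31. The replicate numbers do not pair the pools: same-number deviations correlated at 0.13, 0.0051 and -0.024. With the replicate block 3 members, 1 and 2 other subunits, 3 and 2 adaptors, 3 and 3 membrane partners and 2 and 6 ligands were higher and lower, and Itga3 had an adjusted p of 0.033 at a log2 change of 0.74. In day 7 cells 1 member in place of 2 was past 2-fold with the median over cells, with a pseudocount of 10 CPM, after thinning to 200000 counts and in male cells, in each case Itga6. Itga7 was then at -0.13 with the median, 0.98, 0.92 and 0.72. In day 3 cells 2 or 3 members were past 2-fold higher in every alternative, Itgb5 being lost with a pseudocount of 10 CPM, with the median, after thinning and without glia-rich cells, Itga3 was past 2-fold lower with the median over cells (-1.24), and the left-out cells moved Itgav from 0.59 to -0.54. Of the 8 genes most like a member in SNT neurons, 0 were chosen again over control neurons. Depth limits Itga1, Itga5 and Itga9, which had 8 to 29 counts over the pools.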

Other observations

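In the 11 day 3 cells that the authors left out, Itga3 was at 9.69 CPM or less and at 0 in most, whereas kept neurons of that day had medians of 29.3 and 70.6 CPM. Itga6 was at 40.2 to 131 CPM in the 4 control and 42.3 to 172 CPM in the 7 SNT cells left out. Itga1 had a median of 41.1 CPM in the 7 SNT cells left out, with 5 of 7 above every kept SNT neuron, and was at 0 to 12.9 CPM in the 4 control cells. Itga7 was at 105 to 275 CPM in these 4 and at 162 to 415 CPM in these 7. Glial markers summed to 44196 to 103940 CPM in the 7 SNT cells left out. The part of glial RNA in these levels was not tested.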
